A study of Mus musculus with 24 samples.

Results

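Libraries of mouse MLL-AF9 leukaemia cells labelled as MLLT1 (ENL) knockouts were compared with libraries of a non-targeting guide, 9 of the 24 libraries in the series. They were chosen by the labels alone: 3 replicates of MLLT1 guide 1, 3 of guide 2 and 3 of the non-targeting guide. All groups share the MLL-AF9 fusion oncogene, Cas9, lentiviral delivery at an MOI of 0.3 and 72 hours of selection in 2 ug/ml puromycin, begun 48 hours after infection. RNA was collected on day 9. A DOT1L knockout of 3 libraries, made in the same way, served for a further comparison. Its 3 libraries share 1 label and no other guide is named, so that comparison may rest on 1 DOT1L guide. The control is 1 guide, the cells are given as a single line, and the labels name no separate cultures for the replicates. The p-values therefore reflect only how far samples spread, and that spread can be technical. It was estimated from all 24 libraries in 1 fit of 8 groups, not from the compared libraries alone. The values are raw counts per gene, with 2403044 to 3127008 counts in the control libraries and 3045434 to 7415397 in the MLLT1 libraries. Of 43629 genes in the table, 10578 were tested. Levels are given in CPM (counts per 1000000 counts of a library, scaled by TMM), and fold changes are log2 with an approximate standard error (SE).

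ENL, the protein of Mllt1, reads acetylated histones through its YEATS domain. It is found in the super elongation complex, which releases paused RNA polymerase II, and in the complex of DOT1L, the methyltransferase of histone H3 lysine 79. MLL fusion oncoproteins recruit these complexes to genes such as Hoxa9 and Meis1 and hold myeloid progenitors in an immature state. Neutrophil precursors fill their granules in waves: primary granules carry proteases such as cathepsin G and proteinase 3, and specific granules carry lactoferrin and cathelicidin.

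The list of neutrophil genes was written with earlier results of these data known. In the MLLT1 libraries, 16 of its 30 genes rose, against 0.974% of all tested genes. Among them were Ltf, Camp and Ngp, proteins of specific granules, and S100a8 and S100a9, proteins of the cytosol, while the primary granule proteases Ctsg and Prtn3 fell. The fall in Tnfrsf9, a receptor of the TNF family, was the largest of the falls among genes called with each guide whose mean was 5 CPM or more. Of the tested genes, 103 were higher (0.974%) and 170 lower (1.61%), together 273 (2.58%), by edgeR's quasi-likelihood test at a Benjamini-Hochberg adjusted p under 0.05. A change of at least 2-fold was seen in 57 of the 103 risers and 96 of the 170 fallers. A fit that held the compared groups alone called 97 genes in place of 273. The median log2 fold change of all tested genes was 0.0063. Of the 273 genes, 258 were protein coding. All 6 MLLT1 libraries stood above all 3 controls for 98 of the 103 risers and below them for 137 of the 170 fallers. Over all tested genes, 3.51% stood above and 4.30% below in that way.

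The cell type and the libraries were checked first. Myeloid genes were present in each of the 9 libraries: Ptprc, the pan-leukocyte CD45, was at 85.4 to 112 CPM, and Spi1, the myeloid factor PU.1, was at 98.0 to 227 CPM. Cebpa was at 63.8 to 168 CPM, Mpo at 271 to 613 CPM and Itgam at 10.6 to 32.8 CPM. Csf1r was low, at 0.626 to 2.47 CPM in the control and 2.48 to 7.06 CPM in the MLLT1 libraries. Of 10 lymphoid markers, 8 had no count in any of the 9 libraries, and the summed level of the list was at most 2.06 CPM. The mast cell and basophil markers summed to 46.7 to 74.2 CPM in the control and 48.8 to 86.1 CPM in the MLLT1 libraries, mostly from Mcpt8. The stroma markers summed to 347 to 456 CPM in the control and 355 to 808 CPM in the MLLT1 libraries, almost all from Pecam1. The part of other cells in these sums was not tested. On the second principal component, which held 14.003% of the variance over the 24 libraries, MLLT1 guide 1 replicate 1 stood apart at 48.6. Non-targeting replicate 3 stood apart on the other side, at -40.8, with the other controls at 11.2 and -7.09. Replicate 3 was also the lowest of its group for MLLT1 guide 1, at -21.4, and guide 2, at -30.8. The same held for MLLT10 guide 1 (-21.1) and guide 2 (-14.4), DOT1L knockout (-3.56) and MLLT6 guide 2 (-21.7), but not for MLLT6 guide 1. The component thus went partly with the replicate number, for which the main fit held no term. What that number marks is not given. Replicates of a group differed by a chi-square per gene of 7.81 to 28.5 in these 9 libraries, so none was a copy of another within sampling noise. Leaving out non-targeting replicate 3 brought the 273 calls down to 74, leaving out its replicate 2 to 83, and leaving out its replicate 1 raised them to 432. Of the 273 genes, 52 kept the call in each of 18 alternatives and none changed direction. Named genes below kept it in all 18 unless alternatives that ended the call are given. Without MLLT1 guide 1 replicate 1 and MLLT6 guide 1 replicate 3, which was at 36.6 on that component, 304 genes were called.

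Mllt1 (ENSMUSG00000024212, mm10 chromosome 17, 56892611 to 56935415) did not stand lower in the libraries that target it. Its level was 41.2, 27.8 and 21.8 CPM with the non-targeting guide, 69.3, 46.1 and 36.7 CPM with guide 1, and 43.3, 48.5 and 34.95 CPM with guide 2. The groups overlapped, and the log2 fold change was 0.62 ± 0.22 (SE, edgeR adjusted p = 0.148). It passed the threshold in 2 of 18 alternatives, as higher: when the replicate number entered as a block, and when non-targeting replicate 1 was left out (adjusted p = 0.0386). Where the guides cut is not given in the sources used here, and Cas9 edits need not lower an mRNA, so the knockout rests on the labels and "MLLT1 libraries" means libraries so labelled. None of the other DOT1L complex genes was called. Dot1l was at 72.9 ± 2.84 CPM (SD, n = 3) in the control and 77.2 ± 5.70 CPM (n = 6) in the MLLT1 libraries. Mllt3, which encodes the ENL paralogue AF9, stood at 0.15 ± 0.28 on the log2 scale (edgeR adjusted p = 0.851). Mllt10, which encodes AF10, was at 0.14 ± 0.21 (adjusted p = 0.813), and Mllt6, which encodes the AF10 relative AF17, was at -0.37 ± 0.19 (adjusted p = 0.348).

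**Figure D1:**
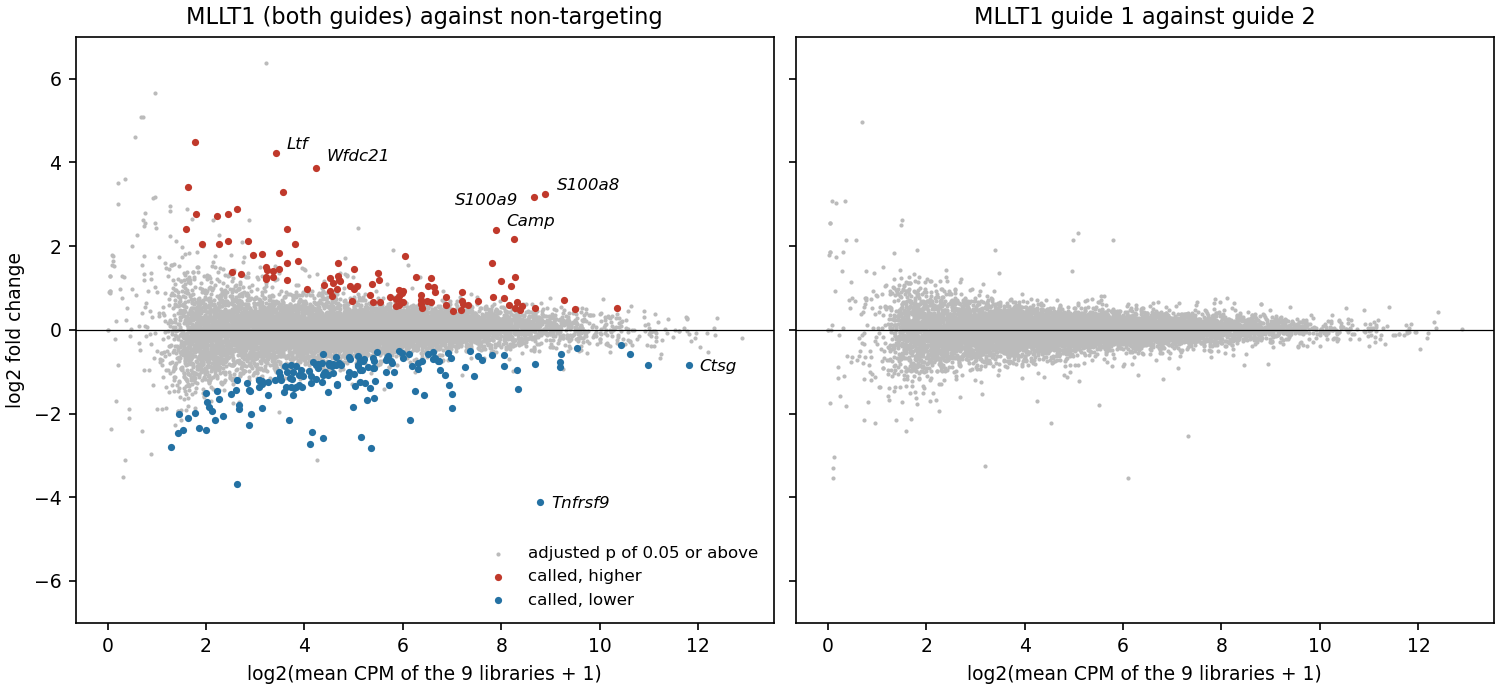
Log2 fold change of each tested gene (y axis) against the log2 of its mean CPM over the 9 libraries plus 1 (x axis), for the MLLT1 libraries against non-targeting (left) and for guide 1 against guide 2 (right). Red points are the 103 genes called higher and blue points the 170 called lower; on the right, 0 genes were called.

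Both guides were set against the control one at a time. Guide 1 called 62 genes higher (0.586%) and 70 lower (0.662%), 132 in all (1.25%). Guide 2 called 52 higher (0.492%) and 77 lower (0.728%), 129 in all (1.22%). In fits of the compared groups alone, guide 1 called 22 genes and guide 2 called 32. Between the guides, 0 genes were called by edgeR and 0 by DESeq2, with 222 and 253 at an unadjusted p under 0.05. With no filter on low counts, edgeR called 21. All 273 genes called for both guides together moved the same way with each guide. They were picked by the mean of both guides, so this agreement was largely set by the choice and is no separate support. Of the 273, 88 (32.2%) passed the threshold with each guide on its own, 37 as higher and 51 as lower. Another 39 passed with guide 1 only, 38 with guide 2 only and 108 with neither. These counts share the 3 control libraries, so they are not independent of each other. Replicate numbers paired the control with guide 2, but not with guide 1, by the check described in the methods. The block raised both counts, from 129 to 223 for guide 2 and from 132 to 265 for guide 1.

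The heterodimer of S100a8 and S100a9, calprotectin, binds calcium and metals and is abundant in the neutrophil cytosol. S100a8 (ENSMUSG00000056054, chromosome 3, 90668978 to 90670035) was at 97.7, 53.2 and 61.4 CPM in the control, 524.6, 756.1 and 684.8 CPM with guide 1, and 644.7, 724.1 and 677.7 CPM with guide 2. S100a9 (ENSMUSG00000056071, chromosome 3, 90692632 to 90695721) was at 89.4, 54.1 and 47.8 CPM in the control, 520.2, 541.6 and 627.2 CPM with guide 1, and 548.4, 641.4 and 573.1 CPM with guide 2. Every MLLT1 library lay far above every control library for both genes. In bulk RNA, fewer or more cells of a type and less or more RNA per cell cannot be told apart, here and for the genes below. The log2 fold changes were 3.24 ± 0.32 for S100a8 (edgeR adjusted p = 7.86e-07) and 3.18 ± 0.26 for S100a9 (edgeR adjusted p = 2.14e-07).

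Ltf (ENSMUSG00000032496, chromosome 9, 111019271 to 111042767), the iron-binding lactoferrin, held only 6 counts in all in the control, at 0.825, 0.938 and 0.389 CPM. It reached 17.2, 11.7 and 12.3 CPM with guide 1 and 20.5, 13.8 and 10.2 CPM with guide 2, which is 4.21 ± 0.66 higher on the log2 scale (edgeR adjusted p = 0.000696). Camp (ENSMUSG00000038357, chromosome 9, 109847379 to 109849617), the antimicrobial peptide cathelicidin, was at 72.1, 48.2 and 67.7 CPM in the control. With guide 1 it was at 199.4, 391.5 and 378.6 CPM and with guide 2 at 294.1, 326.4 and 355.5 CPM (log2 fold change 2.38 ± 0.25, adjusted p = 2.32e-06). The groups did not overlap, although guide 1 replicate 1 was the lowest of the 6. Ngp (ENSMUSG00000032484, chromosome 9, 110419747 to 110423012), a neutrophilic granule protein, was at 96.9, 96.3 and 81.3 CPM in the control, 428.4, 369.4 and 404.1 CPM with guide 1, and 375.3, 525.5 and 353.7 CPM with guide 2. Its log2 fold change was 2.16 ± 0.24 (adjusted p = 6.92e-06), again with no overlap. Lcn2, which binds bacterial siderophores, rose from a mean of 25.2 CPM (SD 1.94, n = 3) to a mean of 85.1 CPM (SD 16.3, n = 6).

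The promoters of 4 of these risers, of Camp, a riser whose window held no match, and of the faller Ctsg are shown so that their letters can be compared, as the 250 bases before each RefSeq start on GRCm38.p6. They lie at chr3:90668821-90669070, plus strand, for S100a8, at chr3:90695722-90695971, minus strand, for S100a9, at chr9:110419558-110419807, plus strand, for Ngp, at chr9:111019042-111019291, plus strand, for Ltf, at chr9:109849457-109849706, minus strand, for Camp, and at chr14:56102575-56102824, minus strand, for Ctsg. Capitals mark the letters TTNCNNAA or, on the other strand, TTNNGNAA, a loose form of the site TTGCGCAA that C/EBP factors are known to bind.
S100a8: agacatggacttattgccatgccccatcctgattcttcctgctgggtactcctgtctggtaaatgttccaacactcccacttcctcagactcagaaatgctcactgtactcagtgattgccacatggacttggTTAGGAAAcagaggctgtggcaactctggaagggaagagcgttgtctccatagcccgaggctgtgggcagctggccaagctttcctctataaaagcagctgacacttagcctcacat
S100a9: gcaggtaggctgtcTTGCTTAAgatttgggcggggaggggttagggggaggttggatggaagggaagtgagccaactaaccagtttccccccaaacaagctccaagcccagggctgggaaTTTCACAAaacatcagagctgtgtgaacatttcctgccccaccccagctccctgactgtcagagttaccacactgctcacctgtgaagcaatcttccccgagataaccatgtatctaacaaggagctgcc
Ngp: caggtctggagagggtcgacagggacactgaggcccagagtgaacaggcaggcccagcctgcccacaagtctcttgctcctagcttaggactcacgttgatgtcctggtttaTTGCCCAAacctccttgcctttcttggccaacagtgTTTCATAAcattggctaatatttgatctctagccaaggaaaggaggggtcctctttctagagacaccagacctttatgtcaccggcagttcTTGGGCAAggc
Ltf: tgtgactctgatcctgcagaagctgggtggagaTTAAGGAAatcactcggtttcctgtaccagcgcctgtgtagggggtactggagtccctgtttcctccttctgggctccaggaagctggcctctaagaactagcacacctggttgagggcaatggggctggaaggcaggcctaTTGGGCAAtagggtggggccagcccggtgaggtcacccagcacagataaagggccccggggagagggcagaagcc
Camp: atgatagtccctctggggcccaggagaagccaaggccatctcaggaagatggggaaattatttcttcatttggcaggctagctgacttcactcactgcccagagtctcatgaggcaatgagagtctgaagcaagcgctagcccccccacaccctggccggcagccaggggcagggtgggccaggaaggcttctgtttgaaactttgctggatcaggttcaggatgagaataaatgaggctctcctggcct
Ctsg: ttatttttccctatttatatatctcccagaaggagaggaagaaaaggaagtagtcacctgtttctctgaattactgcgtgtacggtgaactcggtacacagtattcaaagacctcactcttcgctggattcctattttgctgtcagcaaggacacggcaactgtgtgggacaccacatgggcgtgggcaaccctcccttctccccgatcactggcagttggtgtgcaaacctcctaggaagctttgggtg
The Ngp window held 3 matches, S100a9 and Ltf 2 each, S100a8 1, and Camp and Ctsg 0. Of 32851 promoter windows of the same length, 36.85% held at least 1 match, so a match is common and describes these letters only. The GENCODE genes of S100a8, Ngp, Ltf and Camp begin before the RefSeq starts used here. Their windows therefore run into the gene positions given above, with the Ngp match nearest the start inside the gene.

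The other leading risers were mostly proteins of neutrophils and other myeloid cells. Wfdc21 (ENSMUSG00000051748, chromosome 11, 83746940 to 83752642), a small whey-acidic-protein family member, was at 2.89, 0.626 and 1.94 CPM in the control, 23.2, 23.6 and 21.3 CPM with guide 1, and 27.99, 34.4 and 24.04 CPM with guide 2. The groups were well apart (log2 fold change 3.87 ± 0.36, edgeR adjusted p = 5.24e-07). Clec4a2, an inhibitory C-type lectin, rose by 3.28 ± 0.44 on the log2 scale, from 1.51 ± 0.893 to 15.6 ± 2.75 CPM. Cd177, a neutrophil surface glycoprotein, rose by 2.41 ± 0.39, and Hvcn1, the proton channel of phagocytes, by 2.05 ± 0.34. Chil1, a chitinase-like protein, rose by 2.88 ± 0.55 (adjusted p = 0.00428, and 0.0534 without non-targeting replicate 2). Pilrb2, a paired immunoglobulin-like receptor, rose by 2.12 ± 0.45 (adjusted p = 0.00986), and 4 alternatives ended its call, 1 of them leaving out non-targeting replicate 3. Stfa2, a stefin that inhibits cysteine proteases, rose by 1.83 ± 0.30. Stefin genes and the Pilrb genes have near-identical copies among which counting may split reads, so their single values are uncertain.

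**Figure D2:**
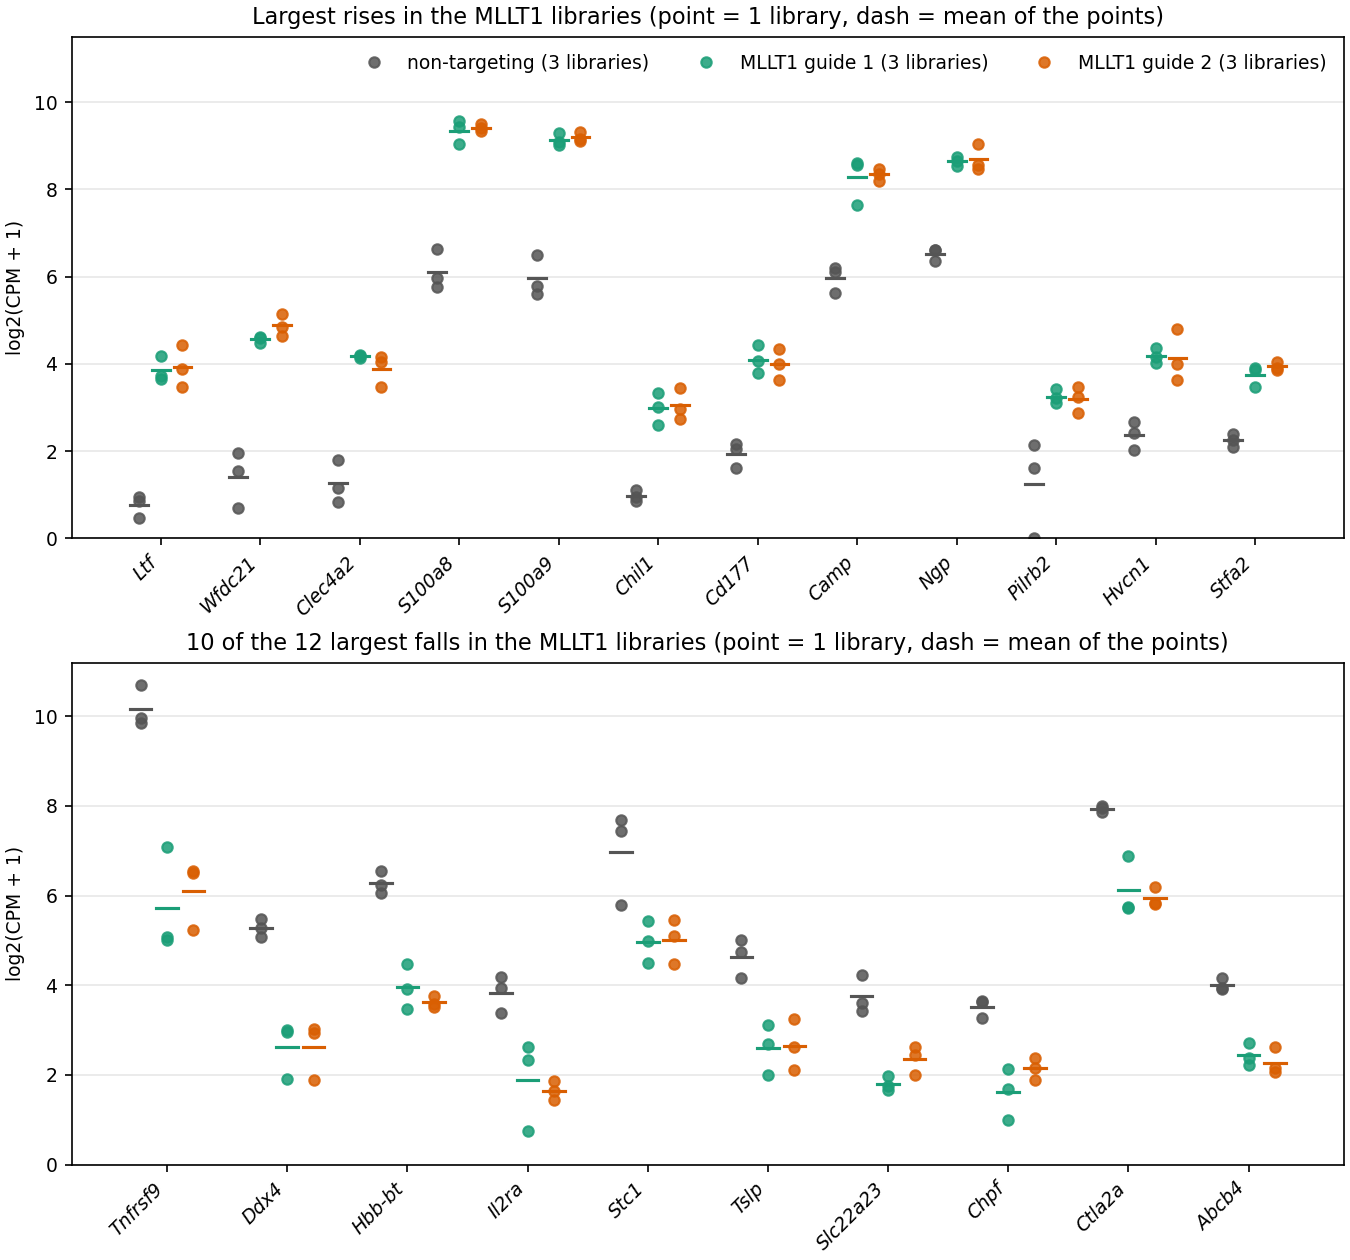
Log2(CPM + 1) (y axis) of the 12 largest rises (top) and 10 of the 12 largest falls (bottom), in order of fold change, for the 3 non-targeting, 3 guide 1 and 3 guide 2 libraries. Points are libraries and dashes their means; the MLLT1 points lie above the control points in the top panel and below them in the bottom panel, S100a8 and Tnfrsf9 among them.

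Of the 30 neutrophil granule and late neutrophil genes, all of which were tested, 16 rose (53.3%) and 2 fell, against 0.974% and 1.61% of all tested genes. Some members passed the filter on low counts through their DOT1L level, and the list was chosen with earlier results known. The share is therefore a description and no test. The list's median log2 fold change was 1.55, or 1.25 with Retnlg, which had no count in the control, at its lower bound. Of the 30, 24 had a value above 0. The 16 risers were Camp, Cd177, Cebpe, Fcnb, Hp, Itgb2l, Lcn2, Ltf, Mmp9, Ngp, S100a8, S100a9, Stfa2, Stfa2l1, Stfa3 and Wfdc21. Alternatives ended the calls of Fcnb in 3 cases, Hp in 4, Itgb2l in 2, Stfa2l1 in 5 and Stfa3 in 4, leaving out non-targeting replicate 2 each time among them. The count of risers was 9 without non-targeting replicate 2, 10 without its replicate 3, and at most 18 in the other alternatives. It was 12 in the fit of the compared groups alone, where the DOT1L libraries had no part in the filter. That fit called 36 of 10071 genes higher. Once MLLT1 guide 1 replicate 1 was left out of that fit, the count was 10, with 35 of 10296 genes called higher. How many members of the list these fits tested is not given here. Cebpe, a transcription factor required for specific granules, was at 66.0, 55.7 and 39.3 CPM in the control and at 76.1 to 134 CPM in the MLLT1 libraries. It was called at an adjusted p of 0.0444, and 9 of 18 alternatives ended the call, with p up to 0.296. Mmp9, the gelatinase of late granules, rose from 5.60 ± 2.44 to 17.6 ± 6.08 CPM (adjusted p = 0.047), and 9 alternatives ended its call too. Several late genes were not called. Mmp8 was at 2.06 ± 0.123 and 2.01 ± 1.13 CPM, the chemokine receptor Cxcr2 at 1.64 ± 1.44 and 0.932 ± 0.409 CPM, and Ly6g, the surface marker of mature mouse neutrophils, at 35.8 ± 11.1 and 29.8 ± 5.51 CPM, each given for the control first.

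Among the primary granule genes, 2 fell and the others named here were not called. Ctsg (ENSMUSG00000040314, chromosome 14, 56099881 to 56102574), cathepsin G, was at 4845, 5054 and 5277 CPM in the control, 3053, 2720 and 2609 CPM with guide 1, and 3156, 2428 and 3082 CPM with guide 2. The MLLT1 libraries all lay below the controls, and the gene fell by 0.83 ± 0.14 on the log2 scale (edgeR adjusted p = 0.00187). Prtn3, proteinase 3, fell from 756 ± 73.7 CPM to 507 ± 73.7 CPM (adjusted p = 0.0329, call ended in 8 alternatives, p up to 0.234). Elane, neutrophil elastase, was at 943 ± 175 and 669 ± 91.2 CPM (adjusted p = 0.145), and Mpo, myeloperoxidase, at 341 ± 61.4 and 465 ± 84.5 CPM (adjusted p = 0.155), neither of them called.

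**Figure D3:**
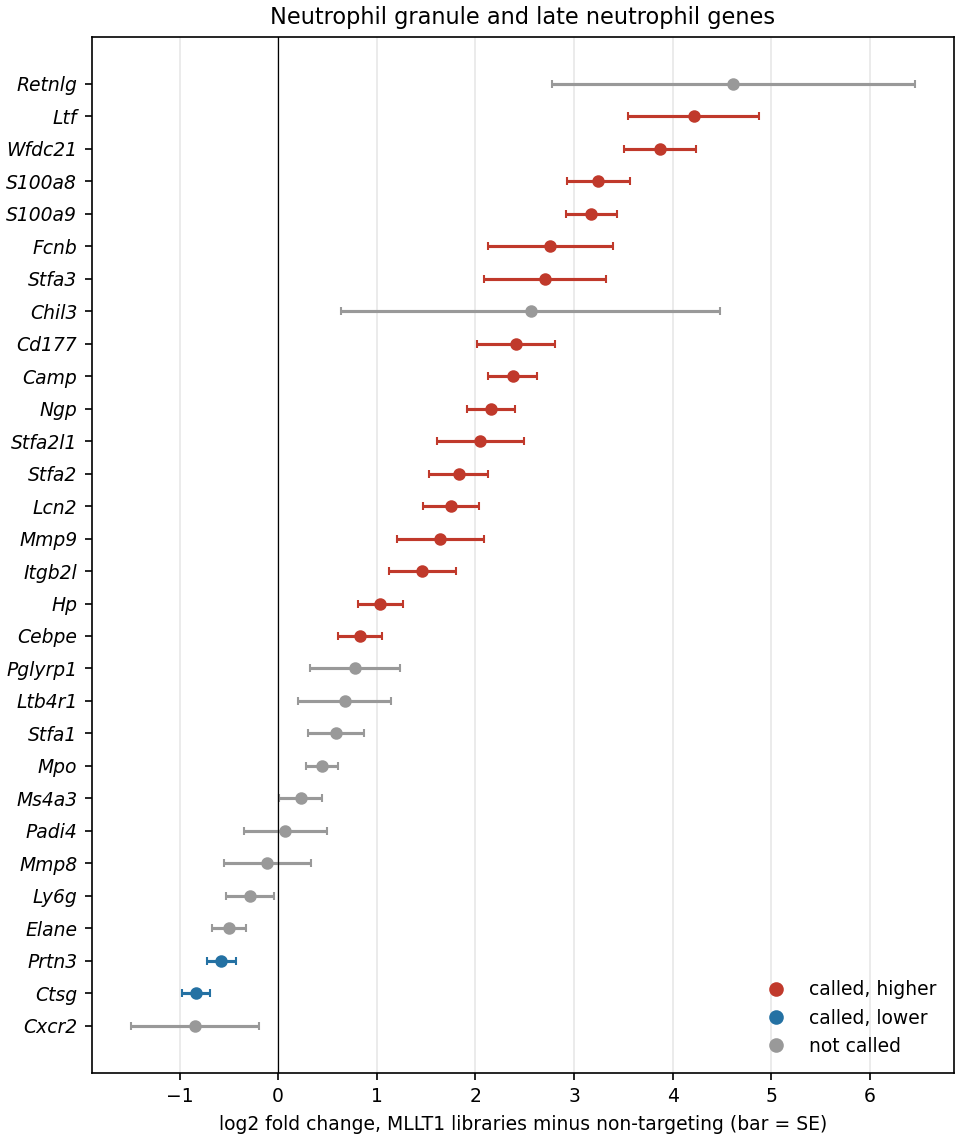
Log2 fold change of the MLLT1 libraries against non-targeting (x axis, bars are SE) for the 30 tested neutrophil genes (y axis, sorted). Red marks the 16 called higher, blue the 2 called lower, Ctsg and Prtn3, and grey those not called; Retnlg had no count in the control, so its fitted value is no bound.

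Tnfrsf9 (ENSMUSG00000028965, chromosome 4, 150914562 to 150946102), known as 4-1BB or CD137, fell by 4.11 ± 0.45 on the log2 scale (edgeR adjusted p = 4.29e-06). It was at 987.6, 1651.7 and 926.5 CPM in the control, 133.8, 31.3 and 32.96 CPM with guide 1, and 92.4, 90.1 and 36.4 CPM with guide 2. The highest MLLT1 library was far below the lowest control. Ddx4, a germ-cell RNA helicase, fell by 2.74 ± 0.26 on the same scale, from 37.99 ± 5.49 to 5.53 ± 2.16 CPM. Hbb-bt (ENSMUSG00000073940, chromosome 7, 103812524 to 103813996), an adult beta-globin with a close copy beside it, fell by 2.57 ± 0.23 (adjusted p = 5.24e-07), from 65.5, 92.9 and 73.9 CPM to between 10.2 and 21.2 CPM. The erythroid marker list summed to 73.8 to 100.1 CPM in the control and 15.1 to 31.9 CPM in the MLLT1 libraries, mostly from Hbb-bt itself, and the part of other cells in it was not tested. Alas2, the erythroid haem synthase, had no count in the 9 libraries, and Gata1 was at most at 1.35 CPM.

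The genes of the other leading falls reported here encode proteins of several kinds. Il2ra, the alpha chain of the interleukin 2 receptor, fell by 2.28 ± 0.36, and Tslp, a cytokine, by 2.15 ± 0.29. Stc1, the hormone stanniocalcin, fell by 2.16 ± 0.39 (edgeR adjusted p = 0.00269, or 0.0511 once non-targeting replicate 3 was left out). Slc22a23, a transporter, fell by 2.00 ± 0.31, Chpf, which polymerises chondroitin, by 1.89 ± 0.34, and Abcb4, a phospholipid transporter, by 1.86 ± 0.33. Ctla2a, an inhibitor of cathepsin L, was at 248.5, 254.9 and 230.6 CPM in the control and at 52.1 to 117 CPM in the MLLT1 libraries, a fall of 1.87 ± 0.20 (adjusted p = 2.94e-06). MLLT1 guide 1 replicate 1 was the highest of the MLLT1 libraries for both Tnfrsf9 and Ctla2a.

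Known target genes of MLL fusions were mostly not called. Of 25 tested of 28 listed, 1 rose and 1 fell (4% each way, against 0.974% and 1.61% of all tested genes). Their median log2 fold change was -0.06, with 12 values above 0. Flt3 (ENSMUSG00000042817, chromosome 5, 147330741 to 147400489), a receptor tyrosine kinase of progenitors, was at 85.3, 134.5 and 171.1 CPM in the control, 28.2, 62.5 and 60.4 CPM with guide 1, and 39.4, 38.1 and 55.3 CPM with guide 2. It fell by 1.46 ± 0.27 with no overlap (edgeR adjusted p = 0.00269, or 0.0548 when non-targeting replicate 3 was left out). Lmo2, a LIM-domain adaptor, rose from 226 ± 39.0 to 363 ± 85.4 CPM, with overlap (adjusted p = 0.0367, call ended in 9 alternatives, p up to 0.292). Hoxa9 was at 270.8, 272.4 and 365.1 CPM in the control and at 199.9 to 271.4 CPM in the MLLT1 libraries, so the groups met at the edge (log2 fold change -0.40 ± 0.15, adjusted p = 0.175). Meis1, its cofactor, was at 94.96 ± 11.9 and 87.4 ± 9.67 CPM (adjusted p = 0.796). Cdkn2c, a CDK inhibitor, lay below the control in all 6 libraries, at 137 ± 11.4 against 192 ± 20.9 CPM (adjusted p = 0.0642, called lower in 3 of 18 alternatives). In the super elongation complex, 0 of 11 tested genes were called, and Aff3 had a log2 fold change of -0.43 ± 0.22 (adjusted p = 0.356).

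Among 19 tested stem and progenitor genes, 2 rose and 2 fell (10.5% each way, against 0.974% and 1.61% of all tested genes). Without non-targeting replicate 2 or 3, 0 were called higher and 1 lower. Muc13, a transmembrane mucin, was at 594.0, 608.6 and 513.6 CPM in the control and at 269.7 to 439.2 CPM in the MLLT1 libraries (log2 fold change -0.81 ± 0.15, edgeR adjusted p = 0.00417). Prom1, the surface protein CD133, rose from 14.7 ± 10.6 to 39.6 ± 8.01 CPM (adjusted p = 0.00869, call ended in 4 alternatives, among them leaving out non-targeting replicate 2 or 3). Lmo2 was the other riser. Cd93, a surface glycoprotein, fell from 903 ± 118 to 667 ± 69.3 CPM (adjusted p = 0.0431, call ended in 11 alternatives).

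Monocyte and macrophage genes went both ways, with 2 of 18 tested called higher and 3 lower (11.1% and 16.7%, against 0.974% and 1.61% of all tested genes). Without non-targeting replicate 2 or 3, 0 were called higher and 1 lower. Adgre1, which encodes the F4/80 antigen, was at 158.7, 240.8 and 259.0 CPM in the control and at 90.2 to 136.2 CPM in the MLLT1 libraries, a fall of 0.90 ± 0.16 (edgeR adjusted p = 0.00184). Ccr2, the receptor that brings monocytes to tissue, fell from 22.3 ± 6.48 to 8.57 ± 2.98 CPM, and F13a1, coagulation factor XIII, from 30.6 ± 6.61 to 15.4 ± 5.41 CPM. Mgl2, a C-type lectin, rose from 10.3 ± 4.63 to 31.6 ± 8.96 CPM. Cybb, the catalytic subunit of the phagocyte oxidase, held 4 counts in the control and rose to 3.47 ± 1.06 CPM. These last 4 calls were ended by 5, 9, 2 and 5 alternatives in the order given, each time including leaving out non-targeting replicate 2 or 3, with adjusted p up to 0.264. Of 14 tested myeloid transcription factors, only Cebpe was called, and Cebpa (0.61 ± 0.20, adjusted p = 0.129) and Spi1 (0.55 ± 0.20, adjusted p = 0.165) were not.

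Lists of receptors, chemokines and pathogen sensors are read against 0.974% of all tested genes called higher and 1.61% lower. Of 20 tested cytokine and growth factor receptors, 0 rose and 2 fell (10.0%), Flt3 and Tnfrsf9. Of 11 toll-like receptors and pathogen sensors, 0 rose and 2 fell (18.2%). Clec4e, the lectin Mincle that senses mycobacterial glycolipid, was at 150.4, 174.5 and 204.1 CPM in the control and at 68.6 to 92.4 CPM in the MLLT1 libraries (log2 fold change -1.09 ± 0.14, edgeR adjusted p = 5.13e-05). Clec4d, a related lectin, fell by 0.73 ± 0.15 (adjusted p = 0.00816, and up to 0.104 without non-targeting replicate 2 or 3). Of 14 chemokines, cytokines and their receptors, 1 rose (7.14%) and 2 fell (14.3%). Ccl9, a CC chemokine of mouse myeloid cells, was at 71.3, 97.3 and 80.1 CPM in the control and at 34.8 to 46.5 CPM in the MLLT1 libraries (log2 fold change -1.01 ± 0.16, adjusted p = 0.000696). Ccr2 was the other faller, and the riser was Il1rn, the interleukin 1 receptor antagonist, at 2.33 ± 1.39 and 5.96 ± 0.792 CPM (adjusted p = 0.0222, call ended in 5 alternatives). The median of the chemokine list was -0.01, or -0.02 without Fpr2, which had no count in the 9 libraries.

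Several short lists had a single faller, where 1.61% of all tested genes were called lower. A single call in lists of this size is not read as a result about the list. Of 7 tested MHC class II genes it was H2-Ob, which regulates peptide loading, at 35.04, 93.5 and 99.9 CPM in the control and 21.4 to 33.2 CPM in the MLLT1 libraries (edgeR adjusted p = 0.000205). Of 22 glycolysis and hypoxia genes it was Slc2a3, the glucose transporter GLUT3, at 77.5, 86.6 and 94.1 CPM in the control and 26.7 to 41.5 CPM in the MLLT1 libraries (log2 fold change -1.32 ± 0.18, adjusted p = 0.00013). Of 17 integrin and adhesion genes it was Itga6, the laminin receptor subunit, which fell from 143 ± 7.36 to 85.1 ± 17.8 CPM (adjusted p = 0.00859, and up to 0.0960 in the 3 alternatives that ended the call, 1 of them without non-targeting replicate 3). Of 12 immediate early genes it was Dusp2, a MAP kinase phosphatase (158 ± 53.01 to 81.7 ± 21.5 CPM, adjusted p = 0.0168), and of 13 p53 targets it was Trp53inp1 (4.06 ± 2.16 to 0.825 ± 0.672 CPM, adjusted p = 0.014). Of 5 genes of mast cells and basophils it was Hdc, which makes histamine (167 ± 28.9 to 104 ± 20.6 CPM, adjusted p = 0.0408). For Dusp2 and Trp53inp1 the groups overlapped. These last 3 calls were ended by 5, 3 and 9 alternatives, leaving out non-targeting replicate 2 or 3 among them. Of 4 dendritic cell genes only Flt3 was called, and of 6 erythroid and megakaryocyte genes Hbb-bt and Zfpm1 fell, the latter with its call ended in 10 alternatives.

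Of 16 G1 cyclins and CDK inhibitors, 1 rose (6.25%, against 0.974% of all tested genes). It was the cell cycle factor E2f1, from 39.3 ± 12.2 to 65.7 ± 14.6 CPM (edgeR adjusted p = 0.0432, call ended in 9 alternatives). Of 29 DNA replication genes, 0 were called although 27 had a log2 fold change above 0, with a median of 0.31. Without non-targeting replicate 1, 2 of them were called higher, where 177 of all 10770 genes tested were. At most 4 were called in any alternative. That was with the block and without MLLT1 guide 1 replicate 1 and MLLT6 guide 1 replicate 3, where 357 of all 10748 genes tested were called higher. In the main fit, 5378 of the 10578 values of all tested genes were above 0. Tyms, thymidylate synthase, was at 59.4, 51.6 and 55.2 CPM in the control and at 67.3 to 80.4 CPM in the MLLT1 libraries (adjusted p = 0.067). Of 26 ribosomal protein genes, 0 were called (at most 3 lower in any alternative) and 1 was above 0, with a median of -0.17. The 3 came with the block and without both these libraries, where 424 of all 10748 genes tested were called lower. Of 25 genes of Myc and ribosome biogenesis, 0 were called (median 0.25), but 4 were called higher without non-targeting replicate 1. In that fit 177 of all 10770 genes tested were called higher. No gene was called among 25 of mitosis (median 0.04), 11 of the Bcl2 family (-0.01), 22 of cholesterol and fatty acid synthesis (-0.04), 18 of the ATF4 response (0.14) or 24 of oxidative phosphorylation (-0.04). The same held for 20 lysosome genes (-0.12), 21 histone readers and their partners (0.05), 18 polycomb proteins (0.06), 12 interferon-stimulated genes (-0.28) and the 1 tested lymphoid gene, Ighm, at -0.71 ± 0.25 (adjusted p = 0.15). In any alternative, at most 2 genes of each of these lists from mitosis on were called. Ezh2, the polycomb methyltransferase, stood above the control in all 6 libraries, at 82.6 ± 11.0 against 60.3 ± 1.33 CPM (adjusted p = 0.0735).

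**Figure D4:**
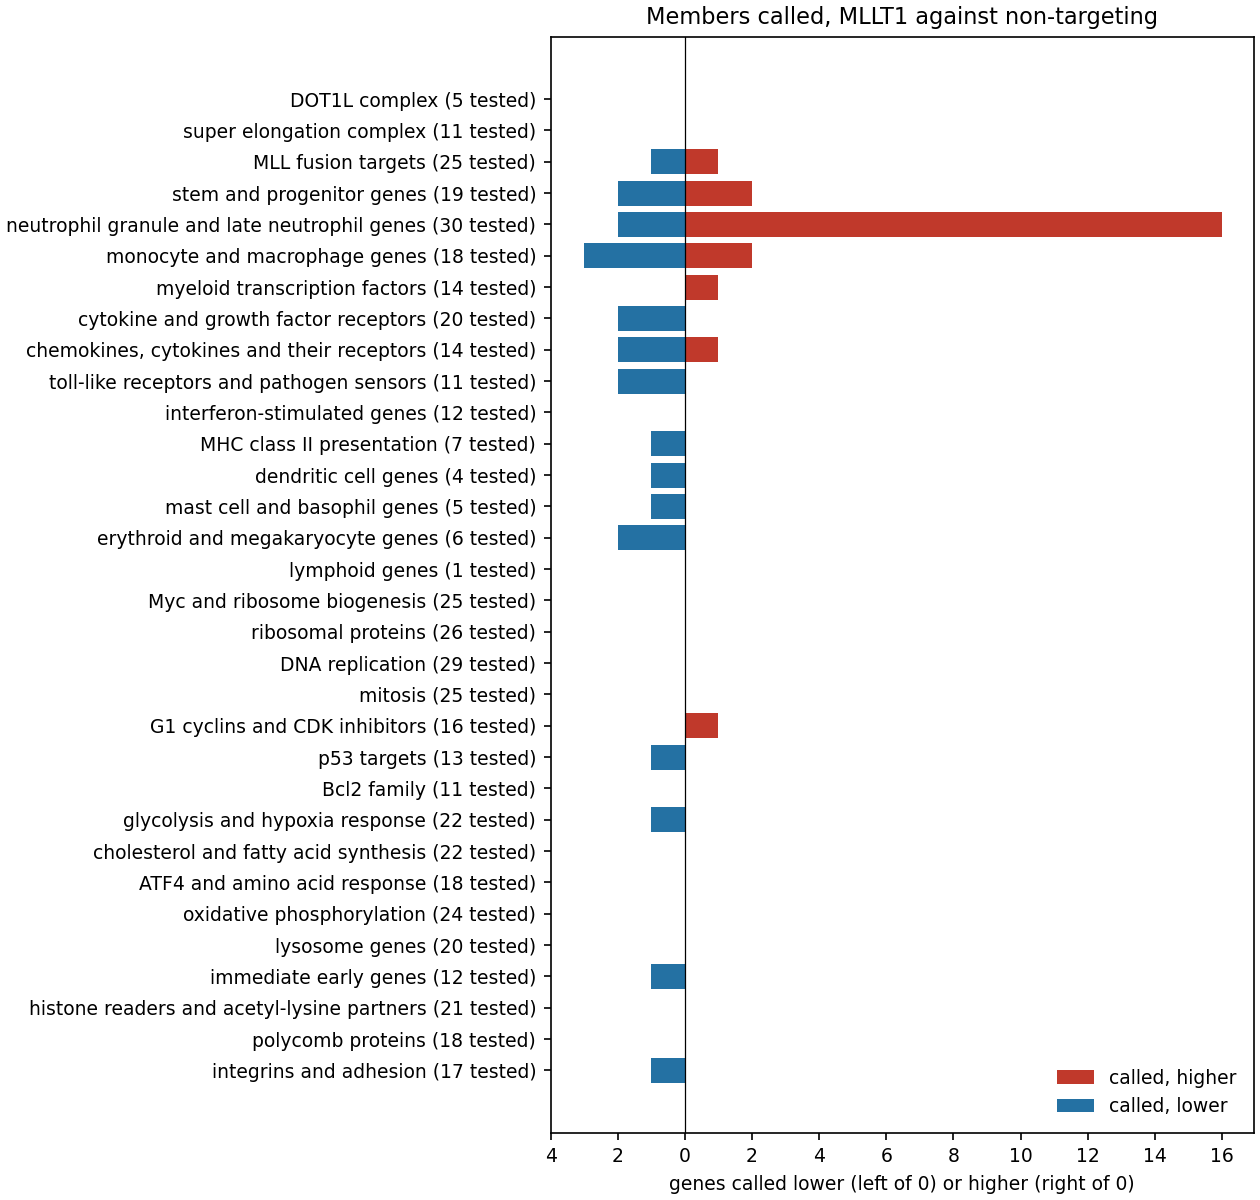
Number of tested members called higher (red, right of 0) or lower (blue, left of 0) in the MLLT1 libraries, for the 32 gene lists (y axis, with the number tested). The neutrophil list stands out with 16 higher and 2 lower, and no other list has more than 3 in either direction.

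The DOT1L knockout was set beside the MLLT1 libraries because ENL and DOT1L meet in a complex. Against the DOT1L libraries, 898 genes were higher (8.49%) and 1176 lower (11.1%) in the MLLT1 libraries, 2074 in all (19.6%), by the same edgeR test. This comparison uses the same MLLT1 libraries as the one above. S100a8 was at 669 ± 80.5 CPM (SD, n = 6) in the MLLT1 libraries and at 37308, 41709 and 37222 CPM in the DOT1L libraries, a log2 difference of -5.86 (adjusted p = 1.31e-13). Ltf was at 14.3 ± 3.86 and 1732 ± 87.3 CPM (-6.94), and Ngp at 409 ± 62.8 and 5495 ± 622 CPM (-3.75). The lowest against DOT1L by size was Chil3, a chitinase-like lectin, with 32 counts over the 6 MLLT1 libraries and 18965 over 3 DOT1L libraries (log2 difference -10.96). It was followed by Stfa3 (-8.69), the lectin Fcnb (-8.08) and Cybb (-7.59). Ifit1bl2 and Siglecg, also among the 6, held 4 and 3 counts in the MLLT1 libraries against 227 and 185. Chil3, Ifit1bl2 and Siglecg met the mean of 5 CPM for this ranking through their DOT1L level. Their place in it was thus partly set by that choice and is no support. With so few counts in the MLLT1 libraries, the size of their log2 differences is uncertain. Some of the neutrophil genes passed the filter on low counts through their DOT1L level, so no count over that list is given here.

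**Figure D5:**
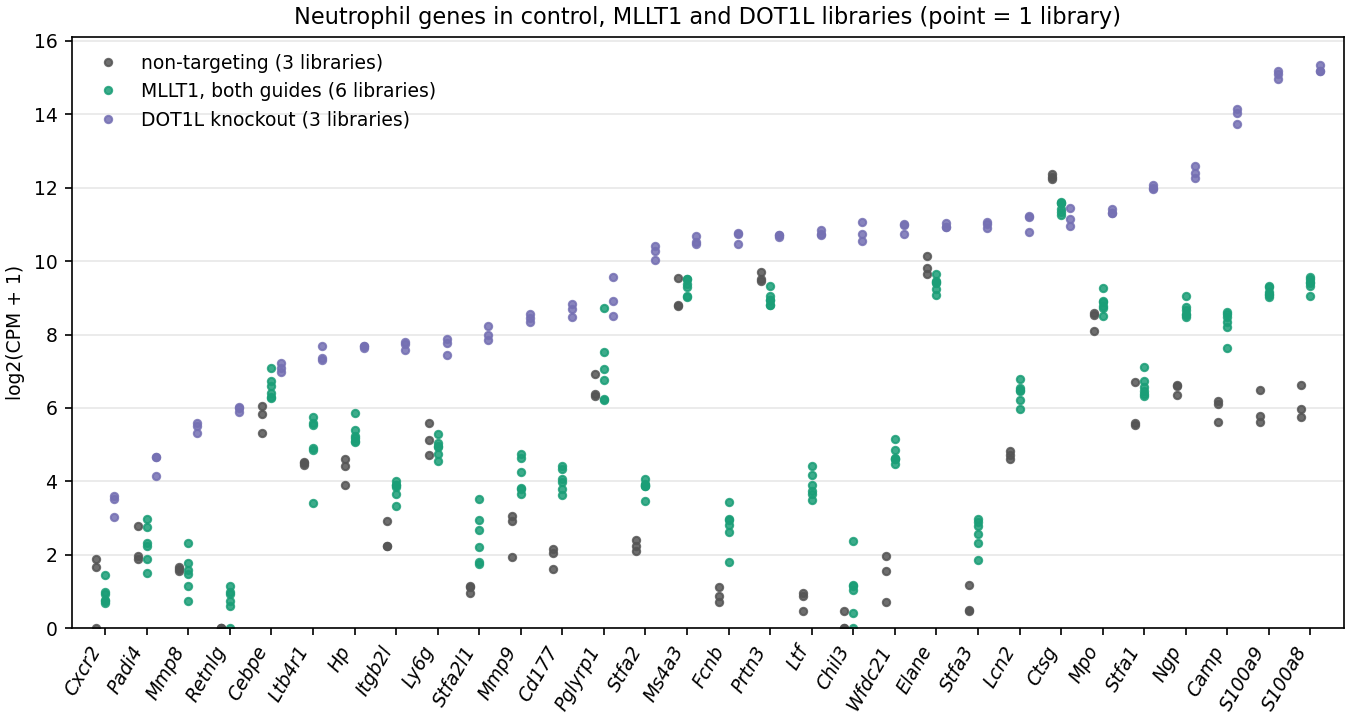
Log2(CPM + 1) (y axis) of the 30 neutrophil genes (x axis, sorted by their DOT1L mean) in 3 non-targeting, 6 MLLT1 and 3 DOT1L libraries, 1 point a library. For S100a8 the MLLT1 libraries lie between the control and DOT1L libraries, and for Prtn3 they lie below both.

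Of the 25 MLL fusion targets, 18 were higher in the MLLT1 than in the DOT1L libraries (72.0%, against 8.49% of all tested genes) and 1 was lower. Hoxa9 was at 229 ± 29.9 CPM in the MLLT1 libraries and at 76.2, 56.9 and 55.8 CPM in the DOT1L libraries (log2 difference 1.87, edgeR adjusted p = 1.57e-08). Meis1 was at 87.4 ± 9.67 and 13.7 ± 6.56 CPM. The largest positive differences were in Parm1 (4.27), Itga2b, the platelet integrin subunit (3.75), the collagen Col4a1 (3.73), Acsbg1, an acyl-CoA synthetase (3.72), Csgalnact1, which starts chondroitin chains (3.55), and Lypd6 (3.42). Of these, only Csgalnact1 was called against the control, at 26.3 ± 2.25 CPM in the MLLT1 libraries, 13.7 ± 1.59 in the control and 2.32 ± 1.93 in the DOT1L libraries (adjusted p = 0.0442 against the control, call ended in 10 alternatives). Slc2a3 went the other way, at 34.7 ± 4.74 CPM in the MLLT1 libraries, 86.1 ± 8.32 in the control and 207 ± 34.4 in the DOT1L libraries. Tnfrsf9 was low in both knockouts, at 69.5 ± 42.4 CPM in the MLLT1 and 9.57 ± 8.81 CPM in the DOT1L libraries.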

How the data were processed

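Raw counts of reads per gene were deposited by the authors as 1 table of 43629 Ensembl genes for 24 libraries. Per the submitters' processing notes, the tools were bcl2fastq, HISAT2, HTSeq and DESeq2, and the build was mm10. Tool versions, gene annotation and strandedness of counting were not given in the sources used here. Overlapping or antisense genes may therefore share reads. Columns were matched to samples by name, and groups were taken from the sample titles. Symbols (for 42548 identifiers), types and positions came from GENCODE M21 of GRCm38, and promoter sequences from RefSeq on GRCm38.p6.

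The counts were tested with edgeR 4.0.16 in R 4.3.3: TMM scaling, edgeR's filter on low counts by group, and 1 quasi-likelihood fit of all 8 groups, with p-values adjusted over 10578 genes. The 5 comparisons were the mean of both MLLT1 guides, guide 1 and guide 2, each against non-targeting, guide 1 against guide 2, and MLLT1 against DOT1L. The SE was worked back from edgeR's F statistic, as the size of the log2 fold change divided by the root of F. Depth limits low genes: 3 counts over the control group correspond to 0.365 CPM, a floor that covers counting error only.

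The members, the 32 gene lists (621 genes) and the tests were chosen with earlier results of these data known. Some genes are in several lists. Genes were named by rule: the DOT1L complex, the 12 largest rises and falls with a mean of at least 5 CPM called with each guide, per list described, up to 4 members ranked by adjusted p, and the 6 largest differences each way against DOT1L. Clone names were skipped, and of the largest falls 10 are reported here. Further neutrophil list members, Meis1 and the genes of the last section were chosen after their values were seen.

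The alternatives were no filter, size factors or the test of DESeq2 1.42.0, a block for the replicate number, a smaller fit that held the compared groups alone, and leave-one-out fits. A further one left out MLLT1 guide 1 replicate 1 together with MLLT6 guide 1 replicate 3, both high on the second principal component; non-targeting replicate 3, the lowest on it, was left out in a fit of its own. The combinations of the last with the block and with the smaller fit were added after seeing the data. To check pairing by replicate number, deviations from the group mean were correlated across genes. It was 0.21, 0.12 and 0.47 for the control and guide 2, each over 0.1, and 0.39, -0.02 and 0.42 for the control and guide 1. Simulated counts with known changes were used to test the scripts. Figures were drawn with Python 3.11.15, pandas 2.3.3 and matplotlib 3.10.9.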

Additional observations from a re-analysis of the deposited data

How the results depend on the processing

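The 273 calls against non-targeting became 463 with no filter, 457 with the replicate block, 781 with the block once MLLT1 guide 1 replicate 1 and MLLT6 guide 1 replicate 3 were left out, 97 in the fit of the compared groups alone and 98 in that fit without both these libraries. Under the same settings the 132 calls of guide 1 became 323, 265, 437, 22 and 31, with 217 by the DESeq2 test. The 129 calls of guide 2 became 287 with no filter, 220 by the DESeq2 test, 223 and 435 with the block, 32 in the fit of the compared groups alone, and 81 in that fit with the block. Guide 1 against guide 2 gave 21 calls with no filter and 0 elsewhere. Leaving out 1 library gave 74 to 432 calls for both guides, 37 to 265 for guide 1 and 44 to 215 for guide 2; the ends were without non-targeting replicates 3 and 1, 2 and 1, and 2 and 1. The fit of the compared groups alone tested fewer genes with fewer samples. With the block, that fit gave 210 calls for both guides and 103 for guide 1. The cause of all these moves was not tested. The 2074 calls against DOT1L ranged from 1456, without DOT1L knockout replicate 3, to 2709, with the block and without both libraries; leaving out 1 library gave 1456 to 2101. Replicate numbers paired the control with guide 2 but not with guide 1, where replicate 2 did not correlate best with its own number. None of the 273 genes reversed, 52 kept the call throughout, and 10 of the 12 largest rises and 11 of the 12 largest falls did. With 3 libraries a group and 2403044 counts in the shallowest, genes under a few CPM rest on few counts.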

Other observations

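The genes here were named after their values were seen, and no explanation is offered. Of genes that encode inhibitors of cytokine signalling, 3 that passed edgeR's quasi-likelihood test are given, picked for their values and not counted against a list. Socs3 went from 19.1 ± 3.10 CPM (SD, n = 3) to 6.86 ± 2.65 CPM (n = 6), with adjusted p = 0.011. Cish went from 36.4 ± 6.32 to 20.5 ± 3.85 CPM (adjusted p = 0.0126), and Socs2 from 152 ± 15.7 to 104 ± 7.82 CPM (adjusted p = 0.0248). All 6 MLLT1 libraries lay below the control for each of these genes, and their calls were ended by 3, 5 and 8 of 18 alternatives, with adjusted p up to 0.181, leaving out non-targeting replicate 2 or 3 among them.

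Mt1 and Mt2 encode metallothioneins, which bind zinc and copper. Mt2 was at 736.2, 466.3 and 440.9 CPM in the control and at 163.8 to 316.8 CPM in the MLLT1 libraries (log2 fold change -1.41 ± 0.20, edgeR adjusted p = 0.000226). Mt1 went from 2882 ± 493 to 1605 ± 421 CPM (adjusted p = 0.011), and 3 alternatives ended its call, among them leaving out non-targeting replicate 1 or 2, with adjusted p up to 0.0865. Ifitm1, an antiviral membrane protein, was at 190.4, 239.3 and 245.3 CPM in the control and at 64.4 to 97.9 CPM in the MLLT1 libraries (adjusted p = 5.24e-07). Thy1, a surface glycoprotein, was at 89.4, 219.3 and 149.3 CPM in the control and at 41.0 to 73.2 CPM in the MLLT1 libraries (adjusted p = 0.000515).

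C3, the central complement component, rose from 49.5 ± 9.39 to 117 ± 13.9 CPM (edgeR adjusted p = 8.86e-05), and Lrg1, a glycoprotein of neutrophil granules, from 21.7 ± 3.60 to 55.6 ± 10.4 CPM (adjusted p = 0.00127). Each of these calls held in all 18 alternatives, as did those of Mt2, Ifitm1 and Thy1.

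Nlrc3 was at 394.1 CPM in non-targeting replicate 2, 143.7 in MLLT1 guide 1 replicate 2, and 315.1 and 579.2 in guide 2 replicates 1 and 2, but at most at 1.65 CPM in the other 5 of these 9 libraries. It was not called (adjusted p = 0.984).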
